A study of Mus musculus with 4 samples.

Results

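The 10 genes described here are regulators of the Sertoli cell, the somatic nurse cell of the seminiferous tubule, and the signals it sends. They were taken by symbol from a table of 50763 genes, and all 10 have a row: the transcription factors Sox9, Wt1, Gata1 and Gata4, the receptor Fshr, and the secreted or membrane-bound signals Amh, Inha, Inhbb, Gdnf and Kitl. Polyadenylated RNA came from mouse testis cells labelled as pachytene spermatocytes, the meiotic germ cells in which homologous chromosomes are paired. There were 2 libraries labelled WT and 2 labelled Hsf5 knockdown, called biological replicates. Strain, age, the way the knockdown was made and how many animals gave each library are not known from the labels. The p-values therefore measure only the spread between these libraries. Hsf5 encodes a heat shock factor, a kind of transcription factor, that is made in the testis.

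Sertoli cells are defined by a small set of factors. Sox9 and Wt1 set up and keep Sertoli identity, Gata4 works with them in the fetal and adult gonad, and Gata1 marks the Sertoli cells of certain stages of the tubule cycle. Follicle-stimulating hormone acts on the testis through its receptor, Fshr, on these cells. Anti-Mullerian hormone (Amh) makes the Mullerian ducts regress in the male fetus, and inhibin B, the dimer of the Inha and Inhbb products, feeds back on the pituitary. Gdnf maintains spermatogonial stem cells through Ret and Gfra1, and Kitl is the ligand of the Kit receptor on differentiating spermatogonia. These genes are markers of somatic cells and not of spermatocytes.

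The counts assigned to genes summed to between 33287428 and 42479164 per library. Levels are given as CPM, the count of a gene scaled to the library's size with TMM factors, and a gene was called where edgeR's adjusted p was below 0.05 over the 23594 genes tested. The targeted gene stood at 586 and 449 CPM in WT and at 287 and 238 CPM in the knockdown (log2 fold change -0.98, SE 0.31; edgeR, adjusted p = 0.0217). The call on Hsf5 was lost when WT replicate 1 was left out (-0.79; edgeR, adjusted p = 0.219), when WT replicate 2 was left out (-1.13; 0.0725), and with scaling by library totals (-0.55; 0.116). The knockdown libraries, although labelled as pachytene cells, held little of several pachytene markers. Of 8 such genes 5 fell, 2 rose (Sycp1 and Hormad1) and 1 did not pass, while 33.5% of all tested genes fell and 27.4% rose. The germ cell POU gene Pou5f2, with the largest fall of the 5, had 151 and 120 CPM in WT and 0.677 and 0.630 CPM in the knockdown. Piwil1, singled out after its values were seen as the smallest fall, went from 1474 and 2061 CPM to 507 and 557 CPM. Neither of the 2 rises passed without WT replicate 2, with log2 fold changes of 1.09 for Sycp1 (edgeR, adjusted p = 0.128) and 1.07 for Hormad1 (adjusted p = 0.109), and Hormad1 did not pass without knockdown replicate 1 (0.71; adjusted p = 0.0749). All 7 spermatid markers fell.

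All 10 Sertoli genes rose in the knockdown. Of all tested genes 27.4% rose and 33.5% fell. In each of the 10 both knockdown libraries lay above both WT libraries, a pattern that 39.0% of tested genes showed. For 8 of the 10 the fitted rise was 8-fold or more, which 10.4% of tested genes reached. The median log2 fold change of the 10 was 3.83, against -0.12 for all tested genes, and their summed level went from 39.4 and 87.3 CPM in WT to 742 and 999 CPM in the knockdown. Leaving out 1 WT library moved the median of the 10 to 3.42 (replicate 1) and 4.60 (replicate 2). In these bulk libraries a larger share of Sertoli cells, or of other cells making these genes, cannot be told from more RNA per cell.

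**Figure D1:**
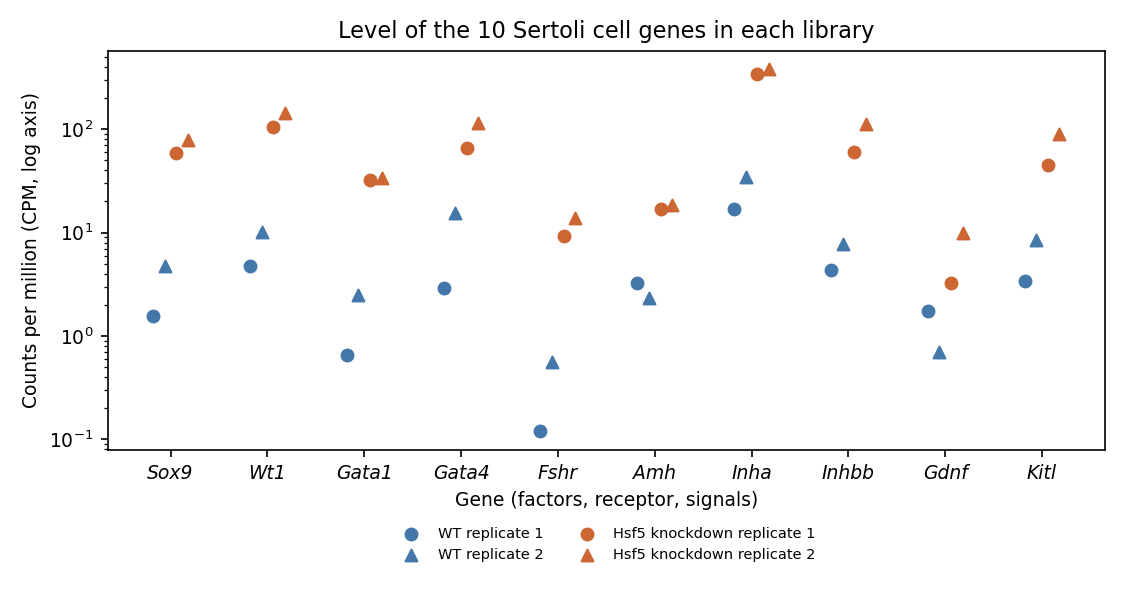
CPM of the 10 genes in each of the 4 libraries, on a log axis, with WT in blue and Hsf5 knockdown in orange; circles are replicate 1 and triangles replicate 2. Every orange point lies above both blue points of its gene, with the narrowest gap for Gdnf (3.28 CPM in knockdown replicate 1 against 1.73 CPM in WT replicate 1).

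Among the transcription factors, Sox9, which directs Sertoli fate in the fetal gonad, stood at 1.55 and 4.79 CPM in WT replicates 1 and 2 and at 58.9 and 79.3 CPM in knockdown replicates 1 and 2. The groups did not overlap, and the lower knockdown library was 12.3 times the higher WT library. The rise was 4.45 on the log2 scale (SE 0.55; edgeR, adjusted p = 0.000196), or 21.9-fold. Without WT replicate 1, the lower of the WT libraries, it was 3.83 for Sox9, and without WT replicate 2 it was 5.50. Wt1, the zinc finger factor of the Wilms tumour locus that maintains Sertoli identity in the adult, had 4.73 and 10.2 CPM in WT and 105 and 143 CPM in the knockdown. Again the groups were well apart, with a rise of 4.05 (SE 0.44; edgeR, adjusted p = 9.65e-05). The rise of Wt1 was 4.73 without WT replicate 2, the higher of its WT libraries. Wt1os, the long non-coding RNA that starts beside Wt1 and runs the other way, was looked up after the values of Wt1 were seen. It had 0.328 and 1.49 CPM in WT and 3.70 and 6.78 CPM in the knockdown, a log2 fold change of 2.53 (SE 0.77; edgeR, adjusted p = 0.0174). Wt1os gave 1.79 without WT replicate 1 and 4.01 without WT replicate 2, and did not pass without knockdown replicate 2 (2.02; edgeR, adjusted p = 0.0664). No annotated gene of GENCODE M21 overlaps the span of any of the 10 genes, Wt1os included, on the older GRCm38 build.

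Gata4 varied most between the WT libraries. This factor, which is made by Leydig cells as well as Sertoli cells, had 2.89 CPM in WT replicate 1 and 15.3 CPM in WT replicate 2, a ratio of 5.30 and the largest of the 10 genes. In the knockdown it had 66.0 and 116 CPM. The knockdown values lay above both WT values, but the size of the rise depended on the WT library: it was 3.32 on the log2 scale over all libraries (SE 0.68; edgeR, adjusted p = 0.00254), 2.55 without WT replicate 1 and 5.00 without WT replicate 2. Leydig cell markers also stood apart between the WT libraries, all 7 higher in replicate 2 with a median ratio of 8.12, and their part in the Gata4 values was not tested. Gata1, also a factor of blood cell precursors, had 0.655 and 2.50 CPM in WT, from 22 and 72 counts. In the knockdown libraries it was even, at 32.5 and 34.0 CPM. The log2 rise was 4.41 (SE 0.62; edgeR, adjusted p = 0.000379), and 3.72 and 5.68 without WT replicate 1 and without WT replicate 2. Of the 10 genes Gata1 is the X-linked one. Of 817 X-linked genes tested 67.9% rose, with a median log2 fold change of 2.89, while 26.5% of 21520 autosomal genes rose, with a median of -0.15. The part of the X chromosome in the rise of Gata1 was not tested.

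The receptor gene Fshr had the largest fitted rise of the 10 and, per length of transcript, the lowest level in WT. Only 4 and 16 counts were found in WT, 0.119 and 0.556 CPM, and 439 and 572 counts in the knockdown, 9.29 and 13.8 CPM. Both knockdown libraries were far above both WT libraries, the closest pair differing 16.7-fold. The log2 fold change was 5.11 (SE 0.75; edgeR, adjusted p = 0.000461), which 1.03% of tested genes exceeded. Its size rests on few WT counts, and it was 4.35 without WT replicate 1 and 6.59 without WT replicate 2. RefSeq gives a 300-base window around the start of Fshr (chr17:89200626-89200925, minus strand, GRCm38.p6), shown because an E box is a long known feature of this promoter. The capitals mark the match to CACGTG, which reads the same on both strands and begins at position -61 from the start.
Fshr: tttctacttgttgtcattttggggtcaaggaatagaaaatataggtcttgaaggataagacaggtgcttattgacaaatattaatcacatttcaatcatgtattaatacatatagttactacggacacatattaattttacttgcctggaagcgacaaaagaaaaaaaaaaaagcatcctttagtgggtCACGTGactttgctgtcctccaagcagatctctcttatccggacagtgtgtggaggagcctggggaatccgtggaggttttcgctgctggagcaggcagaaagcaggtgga
CACGTG occurs in 7.15% of 32851 such windows of mouse genes, on either strand. Windows were found for 6 of the 10 genes, 7 in all since Gdnf has 2 starts, and in these 7 the E box was found for Fshr alone. Of the other letters searched on both strands, GATA was in 6 of the 7 windows and in 57.9% of all windows, and AACAAT, the core of SOX sites, was in none and in 10.7% of all. Some windows lie at a start inside the outermost one, by 8753 bases for Gata1, 532 for Inha, 206 for Kitl and 3679 for the inner Gdnf start. A match is a string of letters and was not tested as a binding site.

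The hormones of the transforming growth factor family rose with the factors. Inha, the alpha subunit of the inhibins, had the highest level of the 10 genes in every library, also per length of transcript, at 16.7 and 34.7 CPM in WT and 345 and 384 CPM in the knockdown. The groups were 9.94-fold apart at their closest. Its log2 fold change was 3.83 (SE 0.41; edgeR, adjusted p = 8.97e-05), and 4.47 without WT replicate 2, the higher of its WT libraries. Of the summed CPM of the 10 genes, Inha made up 42.4% and 39.8% in WT and 46.5% and 38.4% in the knockdown, so its share of the set overlapped between the groups. Inhbb, the beta B subunit that pairs with it to form inhibin B, had 4.38 and 7.67 CPM in WT and 60.3 and 112 CPM in the knockdown. Its log2 fold change of 3.84 (SE 0.45; edgeR, adjusted p = 0.000152) was close to that of Inha, and a difference between these was not tested. The related beta A subunit gene Inhba was near the floor, at 0.0596 and 0.208 CPM in WT and 0.529 and 0.630 CPM in the knockdown, and did not pass (log2 fold change 2.11, SE 0.87; edgeR, adjusted p = 0.0594). With library totals Inhba passed (2.55; edgeR, adjusted p = 0.0318), and its value was 1.44 and 3.24 without WT replicate 1 and without WT replicate 2. It was singled out after its values were seen. The window at the start of Inhbb (chr1:119422199-119422498, minus strand, GRCm38.p6) is shown for its match to GAANNTTC, in capitals. These letters are the inverted pair of units from which heat shock factor sites are built.
Inhbb: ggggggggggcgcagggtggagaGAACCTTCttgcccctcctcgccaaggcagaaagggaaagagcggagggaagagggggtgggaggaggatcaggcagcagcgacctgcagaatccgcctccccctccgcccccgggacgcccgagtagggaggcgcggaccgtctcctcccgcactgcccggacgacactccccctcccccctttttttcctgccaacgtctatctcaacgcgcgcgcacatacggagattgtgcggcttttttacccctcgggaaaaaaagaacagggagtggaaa
GAANNTTC, which is its own reverse complement, occurs in 7.86% of the 32851 windows, and Inhbb was the match among the 7 windows of these genes. Binding of Hsf5 was not measured here.

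Anti-Mullerian hormone was one of 2 genes that were higher in WT replicate 1. Amh had 3.25 and 2.33 CPM in WT and 17.0 and 18.4 CPM in the knockdown, whereas the other 8 of the 10 genes were higher in WT replicate 2. The knockdown libraries were close to each other and at least 5.25 times either WT library. The rise was 2.66 on the log2 scale (SE 0.45; edgeR, adjusted p = 0.000951), the second smallest of the 10 fitted values. In the mouse Amh is high in fetal and young Sertoli cells and low in the adult, and the labels give no age. Gdnf was the other gene higher in WT replicate 1. It had 1.73 and 0.694 CPM in WT, from 58 and 20 counts. In the knockdown group, replicate 1 had 3.28 CPM (155 counts) and replicate 2 had 3.05 times that level (413 counts). The groups were separated by 1.90-fold at their closest, the narrowest gap of the 10. Its log2 fold change was 2.44 (SE 0.72; edgeR, adjusted p = 0.0156), the smallest of the set, and it rested on knockdown replicate 2: without that library the value was 1.45 and did not pass (edgeR, adjusted p = 0.126). Without WT replicate 1 it was 3.23 and without knockdown replicate 1 it was 3.12. The window at the outer start of Gdnf (chr15:7809798-7810097, plus strand, GRCm38.p6) is shown for its match to AGGTCA, the core that nuclear receptors such as Nr5a1, a factor of Sertoli and steroid-making cells, bind, in capitals. The end of this window was not found in a GENCODE M21 transcript of Gdnf, whereas those of Fshr and Inhbb were found in theirs.
Gdnf: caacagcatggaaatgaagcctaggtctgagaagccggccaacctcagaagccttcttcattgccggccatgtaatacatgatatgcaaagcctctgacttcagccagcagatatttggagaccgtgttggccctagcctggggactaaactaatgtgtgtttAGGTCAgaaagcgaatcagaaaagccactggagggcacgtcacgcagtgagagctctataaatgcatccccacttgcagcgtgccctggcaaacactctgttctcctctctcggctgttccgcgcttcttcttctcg
AGGTCA, searched on both strands, occurs in 16.3% of all windows. It was found in 2 of the 7 windows of these genes, those of Gdnf and Inha. Kitl, the membrane-bound or soluble ligand of Kit, had 3.39 and 8.47 CPM in WT and 45.0 and 89.3 CPM in the knockdown. The groups were 5.31-fold apart at their closest. Its log2 fold change was 3.50 (SE 0.53; edgeR, adjusted p = 0.000567). It was 4.33 without WT replicate 2, the higher of its WT libraries, and 2.91 without knockdown replicate 2.

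Compared per length of transcript, Inha was the most abundant of the 10 genes in both groups. In the knockdown its mean was 247 CPM per kilobase of longest transcript, followed by Wt1 (40.1) and Gata4 (26.7), then Inhbb (20.2), Gata1 (17.5), Sox9 (16.7), Kitl (11.9), Amh (10.6), Fshr (4.90) and Gdnf (1.81). In that order Inha stood apart from Wt1, Amh from Fshr, and Fshr from Gdnf, and each of the other neighbours overlapped in their knockdown libraries. In WT Inha had 17.4 CPM per kilobase and stood apart from the rest, while every other pair of neighbours overlapped, with Gata4 (2.68) and Wt1 (2.42) next and Fshr (0.143) last. These levels use 1 transcript length a gene and the GENCODE M21 annotation.

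The other markers of the Sertoli cell moved with the 10, and its other transcription factors did so in part. Of 15 tested Sertoli markers all 15 rose, with a median log2 fold change of 3.90. The secreted cystatin genes Cst9 (15.0 and 15.1 CPM in WT, 201 and 193 CPM in the knockdown) and Cst12 (7.24 and 11.0 CPM, then 185 and 152 CPM) and the tight junction gene Cldn11 of the blood-testis barrier (9.20 and 18.3 CPM, then 241 and 276 CPM) had the smallest p. The summed level of this list was 277 and 630 CPM in WT and 5394 and 6051 CPM in the knockdown. Krt18 was too low to be tested. Among 10 other transcription factors of Sertoli cells 7 rose, 2 fell and 1 did not pass, with a median of 2.78. On the log2 scale Dmrt1, shared by Sertoli cells and spermatogonia, rose by 4.44 (SE 0.34) and the Polycomb gene Cbx2 by 3.77 (SE 0.43). The X-linked nuclear receptor gene Nr0b1 rose by 4.36 (SE 0.50), or by 5.17 without WT replicate 2, the higher of its WT libraries. The exceptions were Zfpm2, the cofactor of Gata4, at 22.2 and 19.1 CPM in WT and 6.39 and 8.96 CPM in the knockdown, and the homeobox gene Emx2 of the early gonad, at 21.4 and 17.2 CPM in WT and 0.169 and 0 CPM in the knockdown. The fall of Zfpm2, -1.43 (SE 0.40; edgeR, adjusted p = 0.0128), was no longer called when knockdown replicate 1 was left out (-1.13; adjusted p = 0.0986) or under scaling by library totals (-0.98; 0.065).

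Other signals that Sertoli cells are known to make were divided. Of 14 tested, 8 rose, 1 fell and 5 did not pass, with a median log2 fold change of 2.31. The count that rose was 5 under scaling by synaptonemal complex and cohesin counts and 11 with library totals. Dhh, the desert hedgehog ligand that acts on Leydig and myoid cells, went from 10.6 and 11.4 CPM in WT to 46.0 and 72.9 CPM in the knockdown. Fst, follistatin, which binds and blocks activins, had 0.119 and 0.208 CPM in WT and 3.81 and 3.41 CPM in the knockdown. Bmp4 was as low in WT, at 0.179 and 0.139 CPM, and had 2.60 and 2.74 CPM in the knockdown. Pdgfa, a growth factor gene, was the one that fell, from 48.6 and 26.04 CPM to 15.5 and 11.1 CPM (log2 fold change -1.49, SE 0.42; edgeR, adjusted p = 0.012), a call that was lost when WT replicate 1 (-0.99; adjusted p = 0.104) or knockdown replicate 2 (-1.25; 0.0592) was left out.

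**Figure D2:**
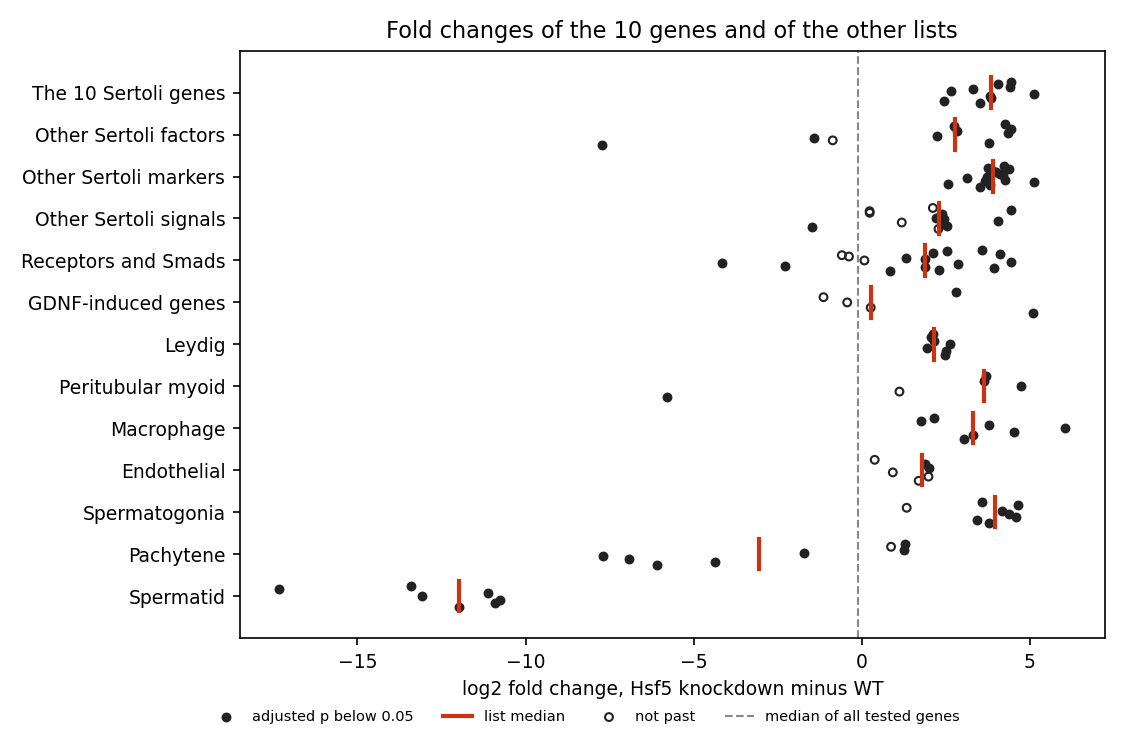
Log2 fold changes, Hsf5 knockdown minus WT, of the tested genes of each list. Filled points have an edgeR adjusted p below 0.05, red bars are list medians and the dashed line is the median of all tested genes, -0.12. The 10 Sertoli genes lie between 2.44 and 5.11, with the other Sertoli markers between 2.57 and 5.11 and the spermatid markers below -10.76.

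The receptors for these signals sit on germ cells and on somatic cells. Of 17 receptors and Smad genes 12 rose, 2 fell and 3 did not pass, with a median log2 fold change of 1.89. Amhr2, the receptor of anti-Mullerian hormone on Sertoli and Leydig cells, went from 27.3 and 58.5 CPM in WT to 481 and 541 CPM in the knockdown. It rose by 3.57 (SE 0.42; edgeR, adjusted p = 0.000146), or by 4.25 without WT replicate 2, the higher of its WT libraries. Ret, the kinase of the Gdnf receptor, had 0.387 and 0.694 CPM in WT and 12.0 and 11.6 CPM in the knockdown. Gfra1, its co-receptor on spermatogonial stem cells, stood at 9.56 and 5.42 CPM in WT and 7.89 and 7.92 CPM in the knockdown, with overlapping groups (log2 fold change 0.08, SE 0.47; edgeR, adjusted p = 0.898), and the sign of the Gfra1 value turned without WT replicate 2 (-0.25). Kit, the receptor of Kitl, had 7.06 and 27.1 CPM in WT and 86.1 and 162 CPM in the knockdown (2.86, SE 0.59; edgeR, adjusted p = 0.00262). The rise of Kit was 2.18 without WT replicate 1 and 4.16 without WT replicate 2. Gfra1 and Kit were singled out after their values were seen, as the partners of Gdnf and Kitl. The genes that fell were Ncam1, an adhesion molecule that can also bind Gdnf, from 22.6 and 24.5 CPM to 1.10 and 1.53 CPM, and Smad1, a transducer of bone morphogenetic protein signals, from 70.4 and 62.3 CPM to 13.7 and 13.5 CPM. Of 5 tested genes that GDNF induces in spermatogonial stem cells 2 rose (40%, against 27.4% of all tested genes) and 3 did not pass, with a median of 0.26. Pou3f1 had 0.298 and 0.278 CPM in WT and 10.03 and 9.95 CPM in the knockdown. Etv5, which Sertoli cells also make, rose by 2.80 (SE 0.53; edgeR, adjusted p = 0.00172), or by 3.74 without WT replicate 2, the higher of its WT libraries. Bcl6b, a transcriptional repressor gene of stem cells singled out after its values were seen, had 8.16 and 6.84 CPM in WT and 3.51 and 3.29 CPM in the knockdown. It did not pass (-1.14, SE 0.48; edgeR, adjusted p = 0.063), but was called lower with the replicate number as a block (adjusted p = 0.033), with the DESeq2 Wald test (0.0373) and when genes averaging under 1 CPM were left out of the test (0.0476).

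Markers of other cells were also read, beside the 27.4% of all tested genes that rose. Of 8 spermatogonia markers 7 rose, with a median log2 fold change of 3.97 and a summed level of 33.9 and 35.4 CPM in WT and 588 and 436 CPM in the knockdown. All 7 macrophage markers rose (median 3.31, summed 10.3 and 17.4 CPM, then 148 and 99.3 CPM), and all 7 Leydig markers rose (2.16, summed 116 and 792 CPM, then 1407 and 2858 CPM). The count of Leydig markers that passed was 1 without knockdown replicate 2, 2 under scaling by synaptonemal complex and cohesin counts, and 3 with the DESeq2 Wald test. Peritubular myoid markers were mixed, with 3 of 5 higher, Actg2 lower and 1 not past, and a median log2 fold change of 3.63. Their sum was 53.5 and 40.8 CPM in WT and 97.6 and 23.5 CPM in the knockdown. Actg2 made up most of the WT sum, with 49.7 and 34.4 CPM, and had 1.29 and 0.194 CPM in the knockdown. Of 6 endothelial markers 2 rose (33.3%, near the share of all tested genes) and 4 did not pass. Their summed level was 4.88 and 11.0 CPM in WT and 15.6 and 30.3 CPM in the knockdown. The count of endothelial markers that rose varied with the WT or knockdown library left out. It was 0 under scaling by synaptonemal complex and cohesin counts, and 1 with DESeq2 size factors and with glmTreat against 1.5-fold. No tested marker of these 5 cell types or of the Sertoli lists had 0 counts in both libraries of a group. The part of these cell types in the rise of the 10 genes was not tested.

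The level of each of the 10 genes was also set against the other Sertoli markers of the same library. For each library the mean log2 CPM of the 15 markers was subtracted from the log2 CPM of each gene, which removes library scaling. With 2 libraries a group no exact two-sided permutation p can be below 0.333, so these values are a description. The groups overlapped for 6 genes. Inha kept the most even relative level, between 1.21 and 1.41 in the 4 libraries, and Wt1 lay between -0.53 and -0.06. Fshr was at -5.84 and -4.55 in WT and at -4.00 and -3.43 in the knockdown, a difference of group means of 1.48. Gata1 (0.71) and Sox9 (0.66) also lay above both WT libraries in both knockdown libraries. Of all tested genes 1.47% showed this pattern. The mean of the markers itself rose, from 2.77 and 3.70 log2 CPM in WT to 7.22 and 7.22 in the knockdown. Most genes therefore fall below it, and this share does not tell how unusual 3 of the 10 is. Amh was at -1.07 and -2.48 in WT and at -3.13 and -3.03 in the knockdown, a difference of -1.30, below both WT libraries. With a rising reference 89.4% of tested genes lay there too. Gdnf had the widest spread, from -1.98 and -4.23 in WT to -5.51 and -3.90 in the knockdown. Against the median of the 15 markers in place of the mean, a reference added after the data were seen, Fshr alone lay above in both knockdown libraries, with Sox9 and Gata1 overlapping. Fshr and Amh kept their places with either reference and with the autosomal markers only, where Inha also lay below (-0.09).

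**Figure D3:**
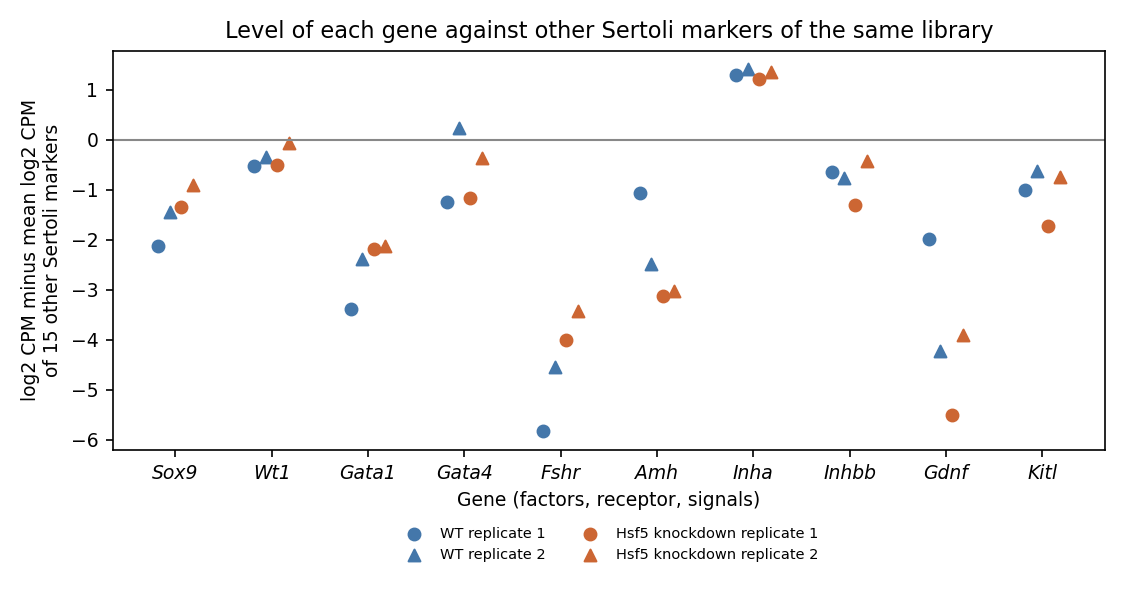
Log2 CPM of each gene minus the mean log2 CPM of 15 other Sertoli markers in the same library, with WT in blue, Hsf5 knockdown in orange, circles for replicate 1 and triangles for replicate 2. The 4 Inha points lie together between 1.21 and 1.41, the orange Fshr points lie above the blue ones, and the orange Amh points lie below.

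Libraries of the same group also differed in these genes. In WT 8 of the 10 were higher in replicate 2, with a median ratio to replicate 1 of 2.33, whereas 46.9% of all tested genes were higher in replicate 2. Of the other Sertoli markers 13 of 15 were higher in that library, with a median ratio of 1.97. In the knockdown all 10 were higher in replicate 2, with a median ratio of 1.43 and the largest for Gdnf (3.05), while 5 of the 15 other Sertoli markers and 47.7% of all tested genes were. Also higher there were 8 of 10 other Sertoli transcription factors (median ratio 1.61), 7 of 7 Leydig and 6 of 6 endothelial markers. Of the spermatogonia markers 2 of 8 were higher there, of the macrophage markers 1 of 7 and of the myoid markers 0 of 5. The knockdown replicates were closest in Gata1 (ratio 1.05), Amh (1.08) and Inha (1.11). The difference between the sets within the knockdown was not tested.

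**Figure D4:**
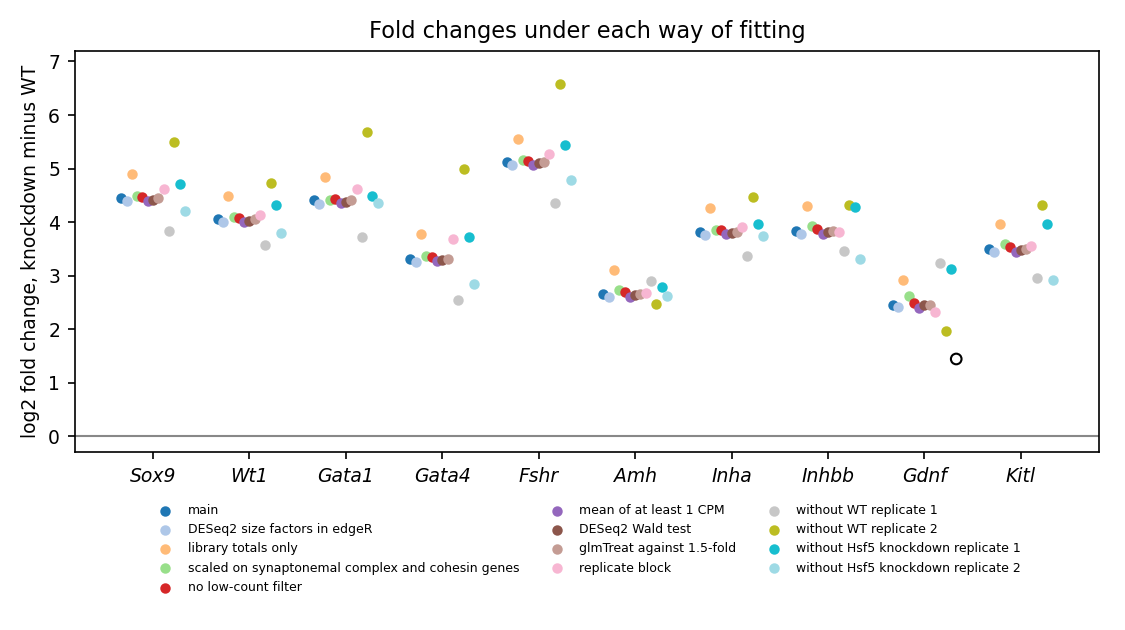
Log2 fold changes of the 10 genes, knockdown minus WT, as reported and under 12 alternatives, each a colour. The open point, Gdnf without knockdown replicate 2 (1.45), is the one value with an adjusted p above 0.05, and all values lie above 0.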

How the data were processed

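The authors deposited 1 table of raw read counts per gene, of which each library has a column named as in its label. The submitters' processing notes name build mm39 and the tools DESeq2 1.46.0, featureCounts 1.5.3, HISAT2 2.2.1 and Trim Galore 0.6.10. The annotation, strand setting and treatment of multi-mapping reads are not stated.

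The test was that of edgeR 4.0.16 in R 4.3.3 (filterByExpr, TMM, quasi-likelihood F test, knockdown against WT, Benjamini-Hochberg adjustment over 23594 of the 36809 genes with a count). The standard error is the log2 fold change divided by the root of its F statistic. The fit was run on simulated data in which few genes changed, as many up as down. That does not test it where, as here, 27.4% of genes rose and 33.5% fell. Alternatives were DESeq2 size factors, library totals, scaling on summed synaptonemal complex and cohesin counts, no low-count filter or one on a mean of 1 CPM, DESeq2 1.42.0's Wald test, glmTreat against 1.5-fold, the replicate number as a block, and leaving out each library. The ratios to other Sertoli markers, with their 2 other references, and the promoter letters were added after the data were seen.

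All 10 genes were named. From each other list the rule took up to 3 called genes with the smallest p and any that moved against the list. The genes and lists were chosen with earlier results of these data known. Promoter windows (250 bases before to 50 after a start) are from RefSeq.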

Additional observations from a re-analysis of the deposited data

How the results depend on the processing

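Across the 12 alternatives the 10 genes gave 120 fitted values. All were above 0, from 1.45 to 6.59 on the log2 scale, and 119 stayed past the threshold, the exception being Gdnf without knockdown replicate 2. The count of the 10 that rose was therefore between 9 and 10 without 1 library. With library totals only, the median over all tested genes moved from -0.12 to 0.31 on the log2 scale and that of the 10 from 3.83 to 4.28. Hsf5 did not pass with library totals (-0.55), with glmTreat against 1.5-fold (-0.98), or without WT replicate 1 or 2, and leaving out 1 library gave it values between -1.13 and -0.79. The cause was not tested. The replicate numbers mark no shared animal or batch in the labels, and deviations of same-numbered libraries correlated at 0.167 over genes. With the replicate number as a block, all 10 genes rose, 7016 genes were higher and 8351 lower, against 6467 and 7902 without it, Hsf5 was at -0.97, and 75 genes of the other lists rose against 72 and 20 fell against 18. Relative to the other Sertoli markers, 1 gene in place of 3 lay above WT with the median as reference, and 2 in place of 1 lay below with autosomal markers only. Gfra1, which did not pass, lay between -0.25 (without WT replicate 2) and 0.53 (without WT replicate 1) with 1 library left out. With 4 counts of Fshr in WT replicate 1, depth limits the size of its rise.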
